A study of Bombyx mori with 4 samples.

Results

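LTR retrotransposons are mobile elements flanked by long terminal repeats (LTRs). They spread through an RNA that is copied into DNA by their own reverse transcriptase, so the same RNA is both the template for new copies and the mRNA for the Gag and Pol proteins. In the silkworm, the PIWI proteins Siwi and Ago3 carry small piRNAs that guide the cleavage of transposon RNAs in the cytoplasm. Gypsy, Pao and Copia are the main families of LTR retrotransposons in insects and differ in the order and sequence of their Pol domains. DIRS elements, which some catalogues place among the LTR elements, insert with a tyrosine recombinase in place of an integrase.

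The members described here are the sequences of the curated transposon list whose class is LTR and whose level was above 1 RPKM (the read count scaled to the length of the sequence and to the number of genome-mapped reads) in Luc KD or in Siwi KD. They numbered 92 of the 146 LTR sequences in the library, which holds 18596 gene and transposon sequences in all. Total RNA had been sequenced from BmN4 cells, a cultured line derived from the silkworm ovary. Both conditions received 500 to 750 pmol of siRNA by electroporation, against luciferase in Luc KD (control) and against Siwi in Siwi KD, and shared the same medium. Each condition had 2 libraries, and these are merged in the deposited values. Each member therefore has 1 deposited value per condition. Values of the separate replicates, which accompany the publication, were not used here, so no difference was tested across replicates and all differences between Siwi KD and Luc KD describe the merged libraries.

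The library sequences received 77350240 reads in Luc KD against 84961588 in Siwi KD. All counts were even, so counting intervals were based on pairs of reads. These intervals, at 95%, hold counting error and no other source of spread. A read that matches several sequences could be assigned to any of them, so elements of similar sequence can share reads and their individual values are uncertain. None of the 16880 gene models in the table could be paired with a gene name (0 matches), so neither the level of Siwi mRNA nor germ cell markers were checked here.

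By family, the members comprised 43 of the 76 Gypsy sequences, 30 of the 41 Pao, 9 of the 15 Copia, 3 of the 3 DIRS and 7 of the 10 LTR sequences to which the list gives no family. The single LTR sequence listed as Retrovirus was not among them. More than 10 RPKM in at least 1 condition was reached by 33 members, and the other 59 stayed between 1 and 10 RPKM at their higher value. The threshold of 1 RPKM was passed in both conditions by 78 members, only in Siwi KD by 13 and only in Luc KD by 1. Of the 54 LTR sequences at or below 1 RPKM in both conditions, 25 had at least 100 reads in all, and 22 of these were higher in Siwi KD, where 73.4% of all sequences at that level with as many reads were. The 13 that passed the threshold only in Siwi KD were higher there by construction, and the 1 that passed only in Luc KD was lower. Just inside the threshold, BmTE_RM6-13723 (Pao) had 0.479 RPKM in Luc KD against 1.01 RPKM in Siwi KD. Copia-2_BM-I had 0.778 and 1.01 RPKM in the same order, and BmRT20 (Pao) had 0.891 and 1.04 RPKM. Just outside it lay Mag (Gypsy) with 0.380 and 0.949 RPKM. BmTE_RM6-5985 (Gypsy) had 0.627 and 0.922 RPKM, and BmTE_RM6-6410 (Pao) had 0.519 and 0.920 RPKM.

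LTR RNA was more abundant in the merged Siwi KD libraries. Summed over the 92 members, the level was 1944 RPKM in Luc KD compared with 4313 RPKM in Siwi KD, 2.22 times as much. The members took 638122 reads in Luc KD against 1305752 in Siwi KD. Their share of the RPKM of all transposons above 1 RPKM was 2.83% (Luc KD) and 4.83% (Siwi KD), and their share of the curated transposons was 4.67% and 9.54%. Curated sequences without a class held 30419 of the 41662 RPKM of curated transposons in Luc KD, and the highest of them reached 27227 RPKM. Over the 9549 sequences of all kinds above 1 RPKM, the sum was 1.01 times as high in Siwi KD as in Luc KD.

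Siwi KD gave the higher RPKM for 88 of the 92 members and the lower RPKM for 4. Among all sequences above 1 RPKM, 46.9% were higher in Siwi KD, and among protein-coding genes 40.3%. With the members limited to those above 1 RPKM in both conditions, 75 of 78 were higher, where 45.0% of all such sequences were. Since the members were selected on these same levels, the counts are given as a description. For 82 members the counting interval of the RPKM ratio lay wholly above 1, where 27.7% of all sequences above 1 RPKM had such an interval. For 4 members it lay wholly below 1, against 33.0% of all sequences, and for 6 it included 1.

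Fold changes (FCs) are given as log2 of the ratio of RPKM + 1, which understates the change of members near 1 RPKM. The median log2 FC of the members was 0.45, with quartiles of 0.24 and 0.76, against -0.02 over all sequences above 1 RPKM. A log2 FC above 1 was found for 13 members, or 14.1%, where 1.98% of all sequences passed it. A log2 FC below -1 was found for 1 member, where 0.534% of all sequences passed it. Without the pseudo-count, 25 members (27.2%) had more than 2 times the RPKM in Siwi KD, where 4.48% of all sequences did. Of these 25, 15 were Gypsy, 4 Pao, 1 Copia and 5 without a family, and for 17 the counting interval lay wholly above 2. Members that passed 1 RPKM only in Siwi KD made up 5 of the 25 and were higher there by construction. Among these 5 are BmRT21 and BmTE_RM6-190, whose intervals also lay wholly above 2. Limited to sequences above 1 RPKM in both conditions, the count was 20 of 78 members (25.6%), against 2.82% of all sequences.

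**Figure D1:**
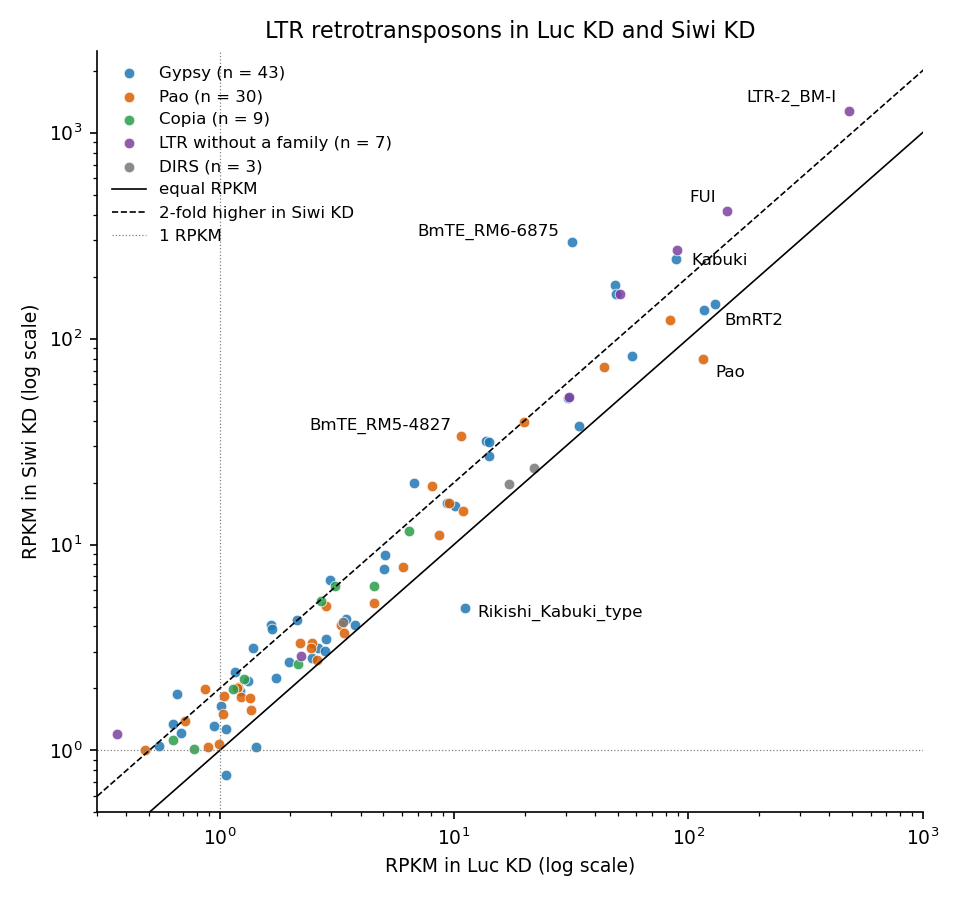
RPKM of the 92 LTR retrotransposons in Luc KD (x axis) and Siwi KD (y axis), both on log scales, with 1 point per element coloured by family; the solid line marks equal RPKM, the dashed line a level 2 times as high in Siwi KD, and the dotted lines the threshold of 1 RPKM. Of the points, 88 lie above the solid line and 4 below it, and 25 lie above the dashed line.

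The highest level and the largest gain belonged to members to which no family is given. These 7 sequences held 41.5% of the summed RPKM of LTR members in Luc KD, 50.7% in Siwi KD and 58.3% of the net gain, and their median log2 FC was 1.40. LTR-2_BM-I, listed as the internal part of an element and 563 nt long, had 486 RPKM in Luc KD (33474 reads) versus 1281 RPKM in Siwi KD (93592 reads). It alone made up 25.0% of the LTR sum in Luc KD and 33.5% of the net gain. Without it, the summed RPKM of the other 91 members was 2.08 times as high in Siwi KD.

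FUI, of 2484 nt, had 146 RPKM in Luc KD against 418 RPKM in Siwi KD, a log2 FC of 1.51. BmTE_RM1-57, of 848 nt, had 89.6 RPKM in Luc KD compared with 270 RPKM in Siwi KD, with a log2 FC of 1.58. Nukegara, of 764 nt, had 51.2 RPKM in Luc KD versus 164 RPKM in Siwi KD, with a log2 FC of 1.66. The fifth of these above 10 RPKM, BmTE_RM1-5 of 3655 nt, had 31.0 and 52.1 RPKM, so that the RPKM ratios of the 5 ranged from 1.68 to 3.21. The remaining 2 were at the low end. LTR1_BM had 112 reads in Luc KD against 154 in Siwi KD, and its counting interval included no change.

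LTR-2_BM-LTR, at 179 nt the shortest member, is listed as the terminal repeat that belongs to LTR-2_BM-I. It had 8 reads in Luc KD against 28 in Siwi KD, which give 0.366 and 1.21 RPKM, a small fraction of the level of the internal part. The library splits 8 elements in this way into an internal part and a terminal repeat of 178 to 433 nt. For 4 of the 8 the terminal repeat had 0 reads in both conditions, and for none was it above 28 reads in either. The internal part was a member for 6 of the 8. Levels per length therefore stand for the internal part in these elements. The part that mapping to such short sequences played in these counts was not tested.

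Gypsy elements form the largest family and held the widest range of log2 FCs. Their summed level was 720 RPKM in Luc KD against 1572 RPKM in Siwi KD, 2.18 times as much, and the median log2 FC of the 43 was 0.50. A higher level in Siwi KD was found for 40, and a log2 FC above 1 for 7. BmTE_RM6-6875, of 2860 nt, stood apart from every other member. It had 31.8 RPKM in Luc KD (11118 reads) compared with 296 RPKM in Siwi KD (109724 reads), a ratio of 9.29, and its log2 FC of 3.18 was the largest of all members. The next highest RPKM ratio among the 92 was 3.75, that of BmTE_RM6-2827.

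BmTE_RM6-2827, of 1575 nt, had 48.6 RPKM in Luc KD versus 182 RPKM in Siwi KD. BmTE_RM6-8200, of 2239 nt, had 49.3 RPKM in Luc KD against 165 RPKM in Siwi KD, with a log2 FC of 1.72. These sequences are listed by a set label and a number, without an element name. Kabuki, a 5308-nt element first described from the female-specific W chromosome, had 89.0 RPKM in Luc KD compared with 244 RPKM in Siwi KD, with a log2 FC of 1.44.

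Of the other Gypsy members past a log2 FC of 1, BmTE_RM6-4418 (3617 nt) had 6.78 RPKM in Luc KD versus 19.9 RPKM in Siwi KD. Noguchi (5775 nt) had 13.8 and 31.9 RPKM, and BmTE_RM6-9737 (4313 nt) had 14.1 and 31.4 RPKM. Rinne (3437 nt) stayed just under that threshold with 14.1 and 27.1 RPKM and a log2 FC of 0.89. Abundant Gypsy RNA in control cells did not go with a large change in each case. BmTE_RM5-906, with 130 RPKM in Luc KD the highest Gypsy member there, had 147 RPKM in Siwi KD, and BmRT2 had 116 and 137 RPKM. Their log2 FCs were 0.18 and 0.24. BmTE_RM5-285 had 57.8 RPKM in Luc KD against 82.3 RPKM in Siwi KD, with a log2 FC of 0.50.

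All 3 Gypsy members that were lower in Siwi KD had counting intervals below no change. Rikishi_Kabuki_type, listed as Kabuki type, had 11.1 RPKM in Luc KD (6202 reads) compared with 4.91 RPKM in Siwi KD (2906 reads). Its log2 FC of -1.04 was the lowest of all members, although with a pseudo-count of 10 or relative to the protein-coding median it no longer passed -1. Suzuka_Kabuki_type had 1.43 RPKM in Luc KD versus 1.04 RPKM in Siwi KD, and Gypsy-4_BM-I had 1.06 and 0.756 RPKM. Suzuka_Kabuki_type and Gypsy-4_BM-I were singled out after their values were seen. Kabuki itself and the elements named as Kabuki type thus differed in direction, but any reads shared between these entries could not be separated.

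**Figure D2:**
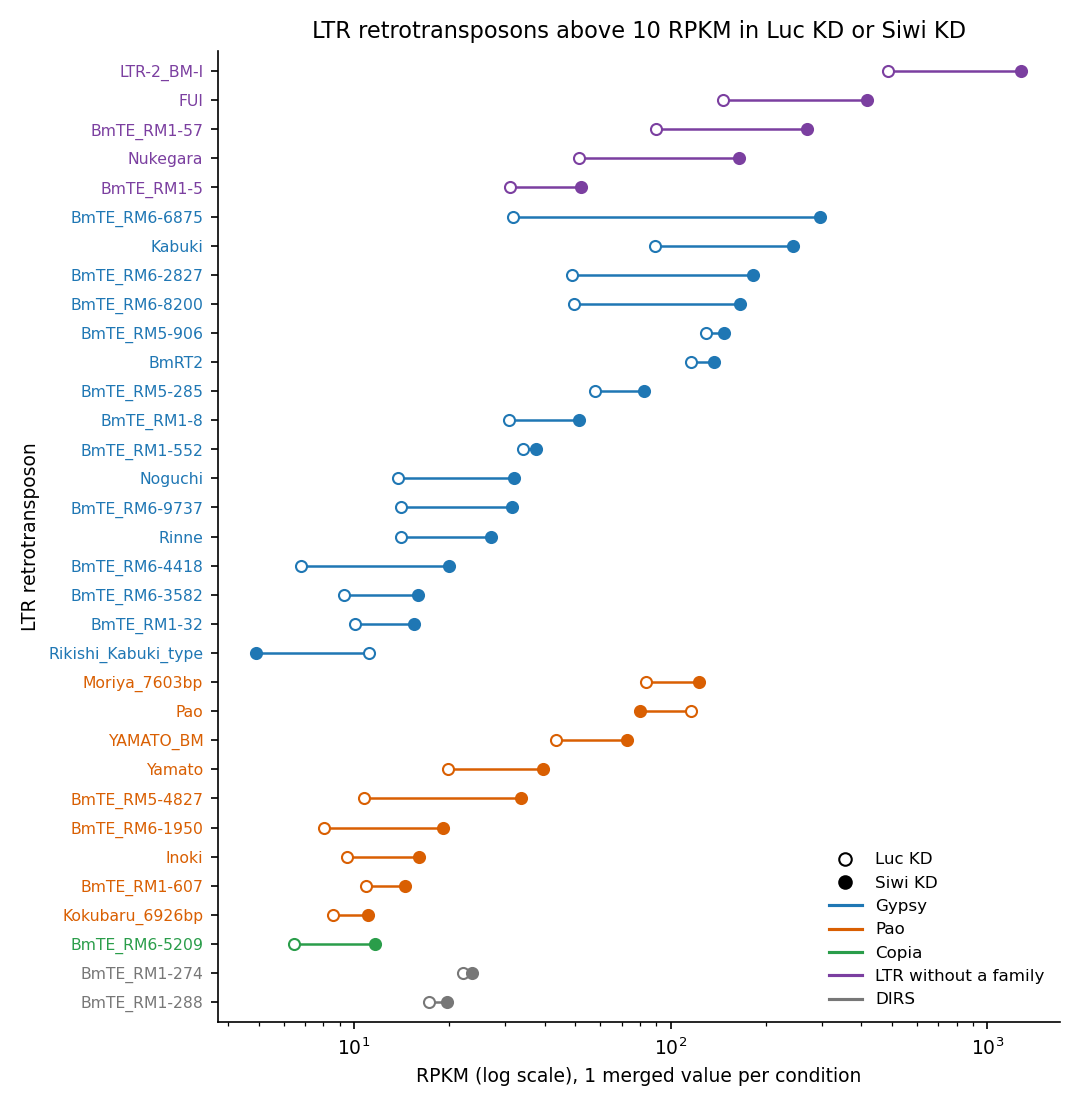
RPKM on a log axis for the 33 LTR retrotransposons above 10 RPKM in Luc KD or Siwi KD, with an open circle for Luc KD, a filled circle for Siwi KD and a line joining them, ordered by family and level. The filled circle lies to the left only for Rikishi_Kabuki_type and Pao, and the longest line is that of BmTE_RM6-6875 (31.8 to 296 RPKM).

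The sum of the Pao elements differed less between conditions than that of the Gypsy elements. The 30 members had 352 RPKM in Luc KD against 467 RPKM in Siwi KD, 1.32 times as much, and contributed 4.83% of the net gain of LTR RPKM. Their median log2 FC was 0.35, and 29 of the 30 were higher in Siwi KD. The exception was Pao, the element for which the family is named. Pao (4791 nt) had the highest level of the family in Luc KD, 116 RPKM from 67640 reads, and 79.9 RPKM from 49698 reads in Siwi KD, a log2 FC of -0.53.

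Moriya_7603bp had the highest Pao-family level in Siwi KD, with 83.5 RPKM in Luc KD compared with 123 RPKM in Siwi KD. Yamato (6400 nt) had 19.8 RPKM in Luc KD versus 39.5 RPKM in Siwi KD. YAMATO_BM, a separate entry of 2314 nt with the same name, had 43.5 and 72.8 RPKM, and reads shared between these entries could not be separated. A log2 FC above 1 was found for BmTE_RM5-4827 (4393 nt), with 10.8 and 33.6 RPKM, and for BmTE_RM6-1950 (6105 nt), with 8.03 and 19.2 RPKM. Inoki (6369 nt) had 9.50 RPKM in Luc KD against 16.0 RPKM in Siwi KD, and Kokubaru_6926bp had 8.60 and 11.1 RPKM. Kaede, with 8050 nt the longest member, had 1.34 and 1.79 RPKM.

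Copia elements were scarce. The 9 members summed to 22.8 RPKM in Luc KD compared with 38.5 RPKM in Siwi KD, 1.69 times as much. All 9 were higher in Siwi KD, with a median log2 FC of 0.49. The highest, BmTE_RM6-5209 (4643 nt), had 6.45 RPKM in Luc KD versus 11.6 RPKM in Siwi KD. The largest log2 FC of the family, 0.83, was that of yokozuna (4738 nt), with 3.09 RPKM in Luc KD against 6.26 RPKM in Siwi KD.

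DIRS elements showed the smallest differences of the 5 groups. BmTE_RM1-274 (2799 nt) had 22.0 RPKM in Luc KD compared with 23.6 RPKM in Siwi KD. BmTE_RM1-288 (2578 nt) had 17.2 and 19.6 RPKM, and BmTE_RM1-419 (723 nt) had 3.35 and 4.22 RPKM. The median log2 FC was 0.18, and the sum of the 3 was 1.11 times as high in Siwi KD. Another 3 sequences above 1 RPKM are listed under a class of their own named DIRS and were not counted as LTR elements here; their median log2 FC was 0.47.

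**Figure D3:**
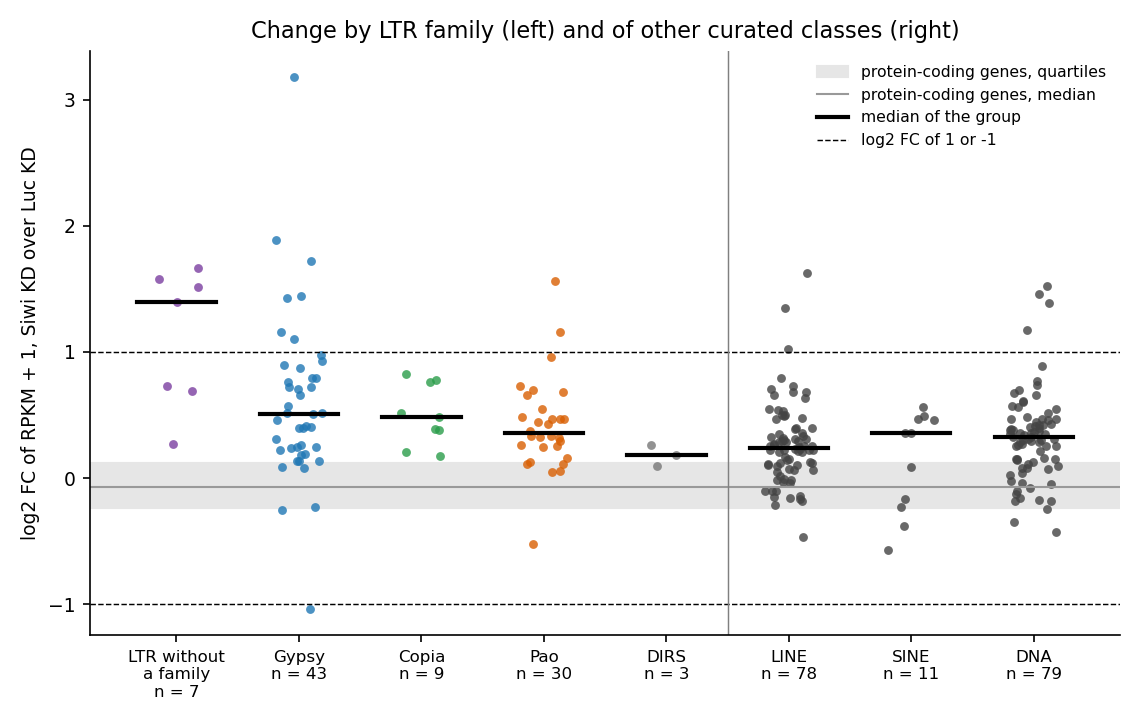
Log2 FC of RPKM + 1 (Siwi KD over Luc KD; y axis) for each LTR member by family (left of the vertical line) and for LINE, SINE and DNA transposons above 1 RPKM (right), with a bar at each median; the grey band and line give the quartiles and the median of protein-coding genes. The medians were 1.40 for LTR members without a family, 0.50 for Gypsy, 0.49 for Copia, 0.35 for Pao and 0.18 for DIRS, and those of the other classes were 0.24 (LINE), 0.35 (SINE) and 0.32 (DNA).

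Other curated classes chosen by the same threshold were also mostly higher in Siwi KD. This held for 63 of 78 LINE (80.8%), 7 of 11 SINE (63.6%) and 66 of 79 DNA transposons (83.5%), with median log2 FCs of 0.24, 0.35 and 0.32. The LTR median exceeded these medians by 0.21, 0.10 and 0.13. The difference from SINE transposons changed sign, to -0.018, when the pseudo-count was 10. More than 2 times the RPKM in Siwi KD was found for 6 LINE (7.69%), 0 SINE and 6 DNA transposons (7.59%), against 25 LTR members (27.2%). These counts include sequences that passed 1 RPKM only in Siwi KD and so were higher there by construction. With both conditions above 1 RPKM, it held for 3 of 70 LINE (4.29%), 0 of 10 SINE and 3 of 70 DNA transposons (4.29%). Of the LTR members, 20 of 78 (25.6%) then remained, against 2.82% of all such sequences. Among all 453 curated transposons above 1 RPKM, of which LTR members made up 20.3%, 10 of the 20 with the largest log2 FC were LTR members. These differences were not tested.

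Most of the gain came from few elements. The 8 members with the largest gain held 51.0% of the LTR sum in Luc KD, 70.0% in Siwi KD and 85.6% of the net gain of 2369 RPKM. They were LTR-2_BM-I, FUI, BmTE_RM6-6875, BmTE_RM1-57, Kabuki, BmTE_RM6-2827, BmTE_RM6-8200 and Nukegara, each with more than 30 RPKM in Luc KD. The other 84 members together had 952 RPKM in Luc KD versus 1294 RPKM in Siwi KD, 1.36 times as much, a remainder that is low in part because the 8 were chosen by their gain. Chosen by their level in Luc KD instead, the 8 highest members held 60.9% of the net gain, and the 84 others were 2.34 times as high in Siwi KD. The 4 members that were lower in Siwi KD changed the sum by -42.5 RPKM, most of it from Pao.

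The 59 members between 1 and 10 RPKM carried little RNA. They summed to 118 RPKM in Luc KD against 175 RPKM in Siwi KD, and 57 of the 59 were higher in Siwi KD, where 51.0% of all sequences in that range were. The 13 members that passed 1 RPKM only in Siwi KD all lie in this range and had to be higher. Of the 45 above 1 RPKM in both conditions, 44 were higher, where 48.6% of all such sequences were, and their median RPKM ratio was 1.38. The ranges were set by the higher of the 2 values, so a rise can itself move a member above 10 RPKM. Of the 33 members above 10 RPKM, 6 passed that level only in Siwi KD and 1 only in Luc KD. Over the 59 the median RPKM ratio was 1.47, against 1.72 for the 33, a contrast that is thus in part built in. For all 6543 sequences in the range of 1 to 10 RPKM it was 1.01. In this range, the median ratio of LINE transposons was 1.22, that of SINE transposons 1.14 and that of DNA transposons 1.33. More than 2 times the RPKM in Siwi KD was found for 12 of the 59 LTR members (20.3%), 5 of 53 LINE (9.43%) and 4 of 46 DNA transposons (8.70%), and for 4.75% of all sequences in that range. Limited to sequences above 1 RPKM in both conditions, it was found for 7 of 45 LTR members (15.6%), 2 of 45 LINE (4.44%) and 1 of 37 DNA transposons (2.70%), and for 2.28% of all sequences. The other 5 of the 12 LTR members passed 1 RPKM only in Siwi KD. For 4 of the 12, named here after their values were seen, the counting interval lay wholly above 2. Gypsy-3_BM-I had 2.94 RPKM in Luc KD compared with 6.76 RPKM in Siwi KD, BmTE_RM5-1338 (Gypsy) 1.66 and 4.06 RPKM, BmRT21 (Pao) 0.868 and 1.99 RPKM, and BmTE_RM6-190 (Gypsy) 0.658 and 1.88 RPKM. BmRT21 and BmTE_RM6-190 are members only through their level in Siwi KD. None of the 59 had a log2 FC above 1 with the pseudo-count of 1.

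Across the 92 members, levels in Luc KD and Siwi KD ranked alike (Spearman's rho 0.97), so the order of abundance was largely kept. The RPKM ratio had little relation to the level in Luc KD (rho 0.03). That level is also the divisor of the ratio, and 13 members at or below 1 RPKM in Luc KD are members only through Siwi KD. Both can lower this rho, so it does not show that ratio and level are unrelated. With the pseudo-count, rho was 0.29, and the pseudo-count itself lowers the values of scarce members. The points share both libraries and, in part, reads, so these values are descriptions.

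The length of the library sequence had little relation to the change. Lengths ran from 179 to 8050 nt (median 4024.5 nt), and Spearman's rho of length and log2 FC was -0.10 over all 92 and -0.03 over the 79 members of 1000 nt or longer. By length, the median log2 FC was 0.52 for 13 members of up to 1000 nt, 0.40 for 11 of 1001 to 2000 nt, 0.72 for 13 of 2001 to 3000 nt and 0.32 for 7 of 3001 to 4000 nt. It was 0.39 for 28 members of 4001 to 5000 nt, 0.78 for 5 of 5001 to 6000 nt, 0.48 for 9 of 6001 to 7000 nt and 0.26 for 5 of 7001 to 8000 nt. The 13 members of up to 1000 nt held 686 of the 1944 RPKM in Luc KD, mainly through LTR-2_BM-I. The 3 of them past a log2 FC of 1, LTR-2_BM-I, BmTE_RM1-57 and Nukegara, are all without a family. Length and family were not separated.

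**Figure D4:**
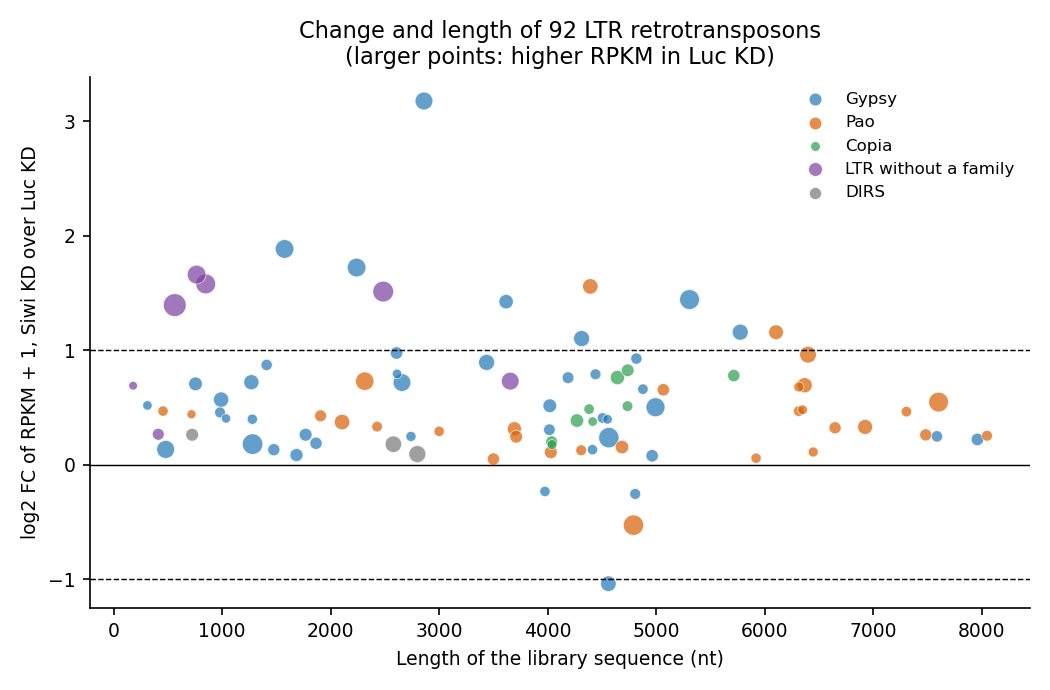
Log2 FC of RPKM + 1 (Siwi KD over Luc KD) against the length of the library sequence in nt for the 92 LTR retrotransposons, coloured by family, with larger points for a higher RPKM in Luc KD; dashed lines mark a log2 FC of 1 and -1. The 13 points above the upper line lie between 563 nt (LTR-2_BM-I) and 6105 nt (BmTE_RM6-1950), and the single point below the lower line is Rikishi_Kabuki_type (4560 nt).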

How the data were processed

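Total RNA from BmN4 cells was depleted of ribosomal RNA and sequenced in pairs on 2 libraries per condition. Per the labels and the methods, the authors trimmed the reads with Trim Galore 0.6.6, aligned them to the silkworm genome by STAR and then to a library of gene models and transposons. The deposited counts are sense reads per sequence, merged over the replicates by the authors and not normalized. The deposited RPKM values divide these counts by sequence length and genome-mapped reads, which the values give as 122229138 (Luc KD) and 129779634 (Siwi KD), without a pseudo-count. A single pair on 1000 nt equals 0.0164 (Luc KD) or 0.0154 RPKM (Siwi KD). The deposited lengths are those of the library sequences.

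The deposited values hold no separate replicates, and replicate values published with the study were not used, so no test was run. Sums, medians, counts past a log2 FC of 1 (pseudo-count 1) and exact binomial (Clopper-Pearson) 95% intervals on read pairs were computed. The calculations were run on simulated counts with counting error alone. These held no spread between replicates and no shared reads, so they checked the computation and not the fit of the intervals to these data. Named members were the 10 highest in Luc KD, those above 10 RPKM past a log2 FC of 1 or -1, family extremes, elements with a name above 10 RPKM, those nearest the threshold and the longest and shortest; further names are given as part of a list or after their values were seen. Members and lists were chosen with earlier results of these data known. Alternatives covered the pseudo-count, the scaling (edgeR 4.0.16 TMM factors and DESeq2 1.42.0 size factors among them), the RPKM threshold and the fold. Python 3.11.15, numpy 2.4.6, pandas 2.3.3, scipy 1.17.1 and R 4.3.3 were used. Sequences of the elements were not used here.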

Additional observations from a re-analysis of the deposited data

How the results depend on the processing

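No paired analysis was possible because the deposited columns merge the replicates, and replicate values published with the study were not used; no replicate was left out for the same reason. The number of LTR members past a log2 FC of 1 was 9 with a pseudo-count of 10, 20 with 0.1 and 25 without one. It was 34 at a 1.5-fold threshold and 1 at a 4-fold threshold. The 1 member below -1 became 0 with a pseudo-count of 10, relative to the protein-coding median and at the 4-fold threshold. With a pseudo-count of 0.1, the median log2 FC was 0.67 for LTR and 0.51 for Pao members, and the LTR median exceeded LINE, SINE and DNA transposons by 0.38, 0.31 and 0.29. Without a pseudo-count, the medians were 0.72 for LTR, 0.73 for Gypsy, 0.54 for Pao and 0.82 for Copia members, and the differences 0.42, 0.36 and 0.33. With a pseudo-count of 10, the medians were 0.12 for LTR, 0.16 for Gypsy, 0.098 for Pao, 0.12 for Copia and 0.091 for DIRS members, and the differences 0.037, -0.018 and 0.0061. A larger pseudo-count by construction pulls members near 1 RPKM towards 0.

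Above 10 RPKM in either condition, the medians were 0.73 for LTR, 0.81 for Gypsy and 0.70 for Pao members, and the differences 0.44, 0.37 and 0.37. Of the LTR members at this threshold, 6 passed it only in Siwi KD and 1 only in Luc KD, so these medians rest in part on that selection. With all sequences that had a read, the medians were 0.27 for LTR and 0.24 for Gypsy, and the differences 0.18 from SINE and 0.0072 from DNA transposons. This setting adds sequences at or below 1 RPKM, whose log2 FCs the pseudo-count of 1 pulls towards 0 by construction. How far this accounts for these values was not tested. The ratio of summed RPKM was 2.08 without LTR-2_BM-I, which was both highest in Luc KD and largest in gain, 1.93 by reads as a share of genome-mapped reads, 2.14 scaled to reads on the library, 2.26 with TMM factors, 2.26 with DESeq2 size factors and 2.33 relative to the protein-coding median. Depth limits mainly the 59 members of 1 to 10 RPKM, which had 8 to 2776 reads in Luc KD.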

Other observations

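The 54 LTR sequences at or below 1 RPKM in both conditions carried 11.0 RPKM in Luc KD against 15.0 RPKM in Siwi KD in sum. No read was counted on 10 of them, which were 186 to 983 nt long. Kuroneko, the single sequence listed as Retrovirus and 9957 nt long, had 100 reads in Luc KD compared with 136 in Siwi KD; it was named after its values were seen. By the prefix of the entry names, the 29 members of the BmTE_RM6 set summed to 219 RPKM in Luc KD versus 801 RPKM in Siwi KD. That sum was 3.65 times as high, against 1.35 times for the 9 members of the BmTE_RM5 set (209 and 282 RPKM). Medians per member ran the other way, with a log2 FC of 0.40 for the BmTE_RM6 set and 0.52 for the BmTE_RM5 set. The BmTE_RM5 sum was held mainly by BmTE_RM5-906 (130 and 147 RPKM) and BmTE_RM5-285 (57.8 and 82.3 RPKM). BmTE_RM6-6875 accounted for 264 of the 582 RPKM gained in the BmTE_RM6 set.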
